A study of Mus musculus with 82 samples.

Results

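Heat shock and chaperone genes were followed in nascent RNA of mouse embryonic stem (ES) cells. The 7 genes were chosen by name: Hspa8, Hsph1, Dnajb1, Hsp90aa1, Hsp90ab1, Hspd1 and Hspe1, out of 24752 RefSeq genes with reads counted by span. The cells were V6.5 ES cells, an established mouse line, grown in serum with leukemia inhibitory factor on gelatin. The labels name no treatment, and the culture protocol of the paper describes no heating or other stress. All values were therefore read as those of cells in routine culture. The 3 assays all label RNA that is being transcribed. In each, nuclei carried out a run-on reaction with nucleotides bearing a propargyl group, and the tagged RNA was joined to DNA by click chemistry. AGTuC used strong detergent on nuclei in bulk and is represented by 2 libraries of 1 batch, so assay and batch cannot be told apart there. inAGTuC kept the nuclei intact, with many nuclei in each well, and has 4 libraries. scGRO–seq sorted single intact cells or nuclei into plates and is represented by 2525 cells of 35 libraries in 10 batches, each batch being the sum of its cells. The paper reports that inAGTuC and scGRO–seq capture paused polymerases less well, which it attributes to their low detergent. The labels do not say whether libraries of 1 assay came from separate cultures, so p-values measure the spread between these samples only, which may be technical. In bulk samples fewer cells of a type and less RNA per cell cannot be told apart.

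Chaperones bind unfolded proteins and help them fold. The HSP70 system works as a cycle: a J-domain protein hands a client to an HSP70, and a nucleotide exchange factor resets it. HSP90 takes over many kinases and receptors at a later stage, and in mitochondria a chaperonin barrel with its lid folds imported proteins. Heat shock genes are also classic examples of genes with an RNA polymerase paused close to the start, and heat shock factor 1 binds alternating nGAAn units in many of their promoters.

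A gene body was taken from 500 bases past the start of the span to its annotated end, and reads in it were given as RPM, the reads of a gene per 1000000 body reads of all genes. Total body reads were 1122368 and 2322620 in the AGTuC libraries, 244129 to 785060 in inAGTuC and 133644 to 2396065 in the scGRO–seq batches. The shallow samples therefore hold few reads of the short genes, and intervals given below cover counting error only. Of the reads in the scGRO–seq libraries of these batches, 28.9% carried a position, barcode and unique molecular identifier (UMI) that another library also held, and these were left out. The 2525 cells used 254 plate barcodes, 226 of them in more than 1 library. A scGRO–seq list named Exp261_c16 shared 99.7% of its reads with the inAGTuC list of that name and was not used. The 12 ES cell markers, Pou5f1 and Nanog among them, had reads in every assay except that Dppa5a stood at 0 in both assays with intact nuclei. Their summed level was 2635 to 2713 RPM in AGTuC, 889 to 1333 in inAGTuC and 727 to 1878 in scGRO–seq. In inAGTuC and scGRO–seq 8 of 8 fibroblast markers had reads, at 38.2 to 94.2 and 20.5 to 118.4 RPM. In AGTuC 3 of 8 did, at 26.7 to 32.7, with Col1a2, Col3a1, Lum, Dcn and Postn at 0. Endoderm markers summed to 38.3 to 41.9 in AGTuC, where Afp was at 0, to 34.4 to 159.8 in inAGTuC and to 25.0 to 134.0 in scGRO–seq. Mesoderm and ectoderm markers summed to 81.1 to 81.4, 26.3 to 49.2 and 20.5 to 71.7 in the same order, with T and Krt5 at 0 in AGTuC and Mesp1 at 0 in the other 2 assays. The part of other cells in the results below was not tested.

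Levels of 5 of the 7 chaperone genes, all but Hspa8 and Hsph1, were lower in both assays with intact nuclei than in AGTuC. With limma voom over 15132 genes, 5 of the 7 were lower in inAGTuC than in AGTuC at an adjusted p under 0.05, against 16.1% of all genes tested, and 5 of 7 were lower in scGRO–seq than in AGTuC, against 30.5%. No member was higher. Both comparisons share the AGTuC libraries. The median log2 difference of all genes was -0.15 and -0.29, and upper-quartile scaling moved these medians to 0.06 and -0.04. That scaling also moved the share of genes called lower and higher, from 16.1% and 17.4% to 11.3% and 20.3% in inAGTuC and from 30.5% and 20.3% to 21.7% and 23.9% in scGRO–seq. Between scGRO–seq and inAGTuC 0.0% of genes were called, and no member was; the lowest unadjusted p of a member was 0.054 (limma, Hsp90ab1). With limma-trend on log2 values 3 of 7 members were called lower in each comparison with AGTuC, beside 2.81% and 8.39% of all genes, and again none between scGRO–seq and inAGTuC.

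Hsp90ab1 encodes the constitutive cytosolic HSP90. It had 452.6 and 420.6 body RPM in the AGTuC libraries and 131.1, 127.4, 89.1 and 199.99 in the inAGTuC libraries. In scGRO–seq batches the lowest, median and highest values were 147.8, 185.6 and 466.5. All inAGTuC libraries lay below both AGTuC libraries, and only Exp264a among the scGRO–seq batches reached the AGTuC range. In Exp264a 162 of these body reads lay in exons and 8 in introns. Exons also held most body reads over all scGRO–seq batches (856, with 137 in introns) and over the inAGTuC libraries (238, with 48 in introns). How far exon reads set the level differences given here was not tested. The AGTuC libraries had 216 exon and 292 intron reads in Exp125c_c01 and 412 and 565 in Exp125c_c02. The log2 difference was -1.68 ± 0.33 (SE) for inAGTuC (limma adjusted p = 0.0011) and -1.10 ± 0.27 for scGRO–seq (adjusted p = 0.0023). Hsp90aa1, the HSP90 that is induced by stress, had 132.8 and 139.1 body RPM in AGTuC, 24.6, 63.7, 36.5 and 50.95 in inAGTuC, and 28.1, 52.3 and 97.3 as lowest, median and highest in scGRO–seq. Both AGTuC libraries lay above every other sample. Its log2 differences were -1.58 ± 0.35 (adjusted p = 0.0020) and -1.36 ± 0.28 (adjusted p = 0.00055).

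Hspd1 and Hspe1 encode the mitochondrial chaperonin HSP60 and its lid HSP10. Hspd1 had 271.7 and 291.9 body RPM in AGTuC, 77.8, 68.1, 61.7 and 145.2 in inAGTuC, and 43.2, 86.0 and 119.8 in scGRO–seq (lowest, median, highest). The AGTuC libraries were above every other sample. The log2 differences of Hspd1 were -1.68 ± 0.31 (limma adjusted p = 0.00074) and -1.78 ± 0.27 (adjusted p = 3.2e-05). Hspe1 had 48.1 and 46.1 in AGTuC, 20.5, 6.6, 6.9 and 19.1 in inAGTuC, and 7.3, 15.4 and 23.4 in scGRO–seq. It too was higher in AGTuC than in every other sample, with log2 differences of -1.86 ± 0.42 (adjusted p = 0.0027) and -1.55 ± 0.31 (adjusted p = 0.00051).

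Dnajb1, the J-domain partner of HSP70, had 35.6 and 40.04 body RPM in AGTuC. It had 4.1, 17.6, 13.7 and 5.1 in inAGTuC, and 0, 13.9 and 17.3 as lowest, median and highest in scGRO–seq. It rested on few reads, with 19 body reads in all inAGTuC libraries and 38 in all scGRO–seq batches. Its log2 differences were -1.99 ± 0.57 (limma adjusted p = 0.011) and -2.18 ± 0.43 (adjusted p = 0.00041). The first did not pass without inAGTuC library Exp261_c16 (adjusted p = 0.062) or AGTuC library Exp125c_c02 (adjusted p = 0.085). Hsph1, an HSP110 that resets HSP70, had 115.8 and 116.7 in AGTuC, 65.5, 48.3, 22.8 and 126.1 in inAGTuC, and 21.6, 67.4 and 137.2 in scGRO–seq. These ranges overlapped, and its log2 differences of -0.96 ± 0.46 (adjusted p = 0.11) and -0.67 ± 0.38 (adjusted p = 0.14) did not pass, although the first reached -1.52 (limma adjusted p = 0.019) without Exp261_c16. In scGRO–seq 4 members, Hsp90aa1, Hspd1, Hspe1 and Dnajb1, had every batch below both AGTuC libraries, as did 20.8% of all genes tested.

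**Figure D1:**
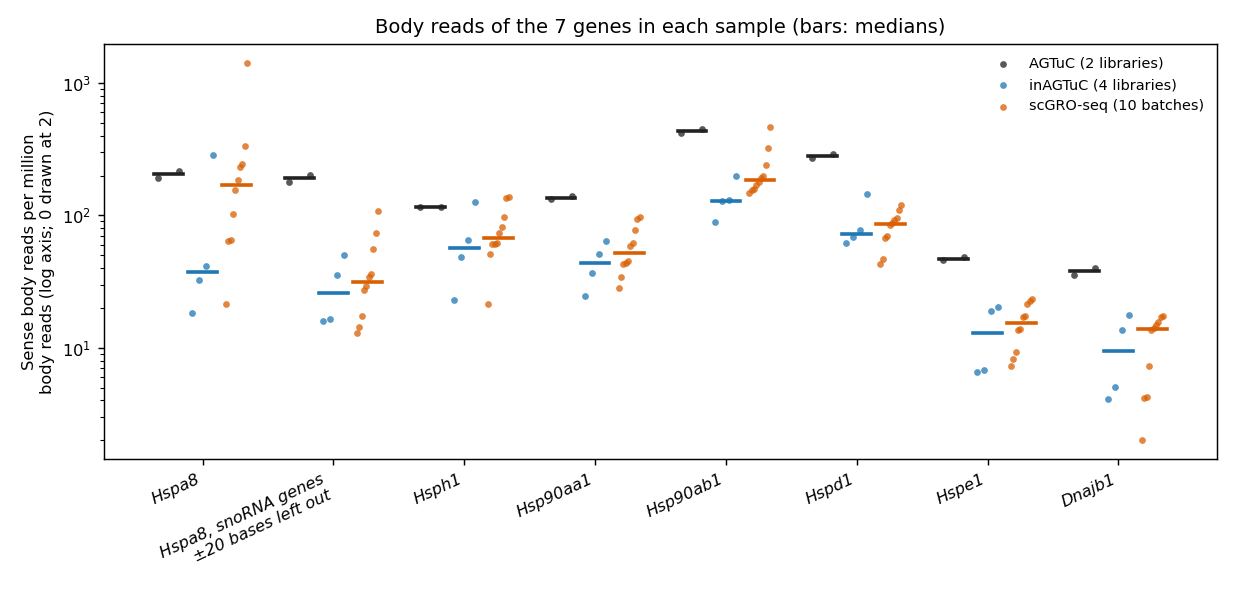
Sense reads in the body of each gene (RPM), on a log axis, for 2 AGTuC libraries, 4 inAGTuC libraries and 10 scGRO–seq batches (points, with bars at the medians; a value of 0 is drawn at 2). The AGTuC points lie above all others for Hsp90aa1, Hspd1, Hspe1 and Dnajb1, and the wide spread of Hspa8 narrows once 20 bases on both sides of its snoRNA genes are left out.

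Hspa8 encodes the constitutive HSP70 and also hosts small RNA genes in its introns. By the annotated limits of these genes, its body had 190.7 and 217.9 RPM in AGTuC and 32.8, 41.7, 18.3 and 286.6 in inAGTuC. The lowest, median and highest scGRO–seq values were 21.6, 170.3 and 1419. Hspa8 was the most variable member, with Exp264a far above the other batches. Its log2 differences were -1.66 ± 0.95 (limma adjusted p = 0.18) and -0.16 ± 0.72 (adjusted p = 0.86).

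The small RNA genes are Snord14c (chr9:40803583-40803669), Snord14d (chr9:40803995-40804081) and Snord14e (chr9:40804748-40804838), all on the plus strand of GRCm38 as is Hspa8 itself (chr9:40801276-40805202). They are box C/D small nucleolar RNAs (snoRNAs), which guide 2′-O-methylation of other RNAs and are cut out of the intron of their host. Their sequences are shown because most Hspa8 reads of the assays with intact nuclei lay on them. Capitals mark the box C letters TGATGA and the last box D letters CTGA.
Snord14c: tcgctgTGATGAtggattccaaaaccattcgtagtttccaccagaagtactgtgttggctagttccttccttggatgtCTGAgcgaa
Snord14d: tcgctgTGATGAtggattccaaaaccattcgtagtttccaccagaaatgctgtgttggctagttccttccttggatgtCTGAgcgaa
Snord14e: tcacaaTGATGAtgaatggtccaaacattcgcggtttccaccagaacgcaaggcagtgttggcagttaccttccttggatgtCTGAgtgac
Each gene ends 5 bases after box D, and Snord14c and Snord14d are close copies. The share of Hspa8 sense reads on these genes was 7.6% (33 of 432 reads) and 9.4% (88 of 935) in AGTuC, with 95% Wilson intervals of 5.5 to 10.53% and 7.7 to 11.5%. In inAGTuC it was 88.7%, 83.3%, 96.7% and 80.6%. In scGRO–seq the lowest, median and highest batches were at 39.98%, 81.0% and 93.3%, so neither assay with intact nuclei overlapped AGTuC. The mean shares were 8.53% ± 1.25 (SD, n = 2), 87.3% ± 7.1 (n = 4) and 74.8% ± 17.2 (n = 10). Two-sided exact permutation tests gave p = 0.067 for inAGTuC against AGTuC and p = 0.015 for scGRO–seq against AGTuC, in both cases the smallest value the samples allow. The difference between scGRO–seq and inAGTuC had an exact p of 0.20. Without either AGTuC library the smallest exact p for scGRO–seq was 0.091.

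Reads clustered in the later part of the snoRNA genes and at their 3′ ends. Of scGRO–seq reads inside the annotated limits, 600 of 627 on Snord14c, 895 of 920 on Snord14d and 1295 of 1632 on Snord14e lay past the middle of the gene. Read positions mark the 3′ end of the captured RNA. In scGRO–seq the commonest position was 5 bases past the end of Snord14e (406 of 2437 reads within 60 bases of the gene), 1 base past the end of Snord14d (248 of 1500) and 1 base before the end of Snord14c (67 of 825). In inAGTuC the commonest positions were 27 bases before the ends of Snord14c and Snord14d and 5 bases past the end of Snord14e. From 21 to 60 bases past the ends there were 14, 4 and 6 reads for Snord14c, Snord14d and Snord14e in scGRO–seq.

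Since many reads lay just outside the annotated limits, the genes were also extended by 20 bases on both sides. The share was then 87.8 to 98.3% in scGRO–seq and 85.1 to 97.0% in inAGTuC, against 10.9% and 13.3% in AGTuC. Of 4915 Hspa8 sense reads in scGRO–seq, 188 lay outside. Snord14e held 51.3% of the snoRNA reads in scGRO–seq, 43.9% in inAGTuC and 69.01% in AGTuC. Antisense reads were also piled there: 1104 of the 1124 antisense reads of Hspa8 in scGRO–seq lay on the extended snoRNA genes. These 1124 stood beside the 4915 sense reads, snoRNA genes counted. Of the reads of the other members, 14.1 to 23.2% were antisense in that assay and 0 to 5.7% in AGTuC. What the antisense reads on the snoRNA genes are was not tested.

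Without the extended snoRNA genes the Hspa8 body gave another picture. It had 178.3 and 202.5 RPM in AGTuC, 16.6, 35.2, 15.998 and 50.1 in inAGTuC, and 12.99, 31.5 and 107.3 as lowest, median and highest in scGRO–seq. Every sample of the assays with intact nuclei now lay below both AGTuC libraries. Its log2 differences became -2.65 ± 0.43 (limma adjusted p = 0.00023) and -2.59 ± 0.33 (adjusted p = 4.9e-06), which made 6 of 7 members lower in each comparison, beside 15.9% and 28.6% of all genes. This alternative was chosen after the reads had been examined.

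**Figure D2:**
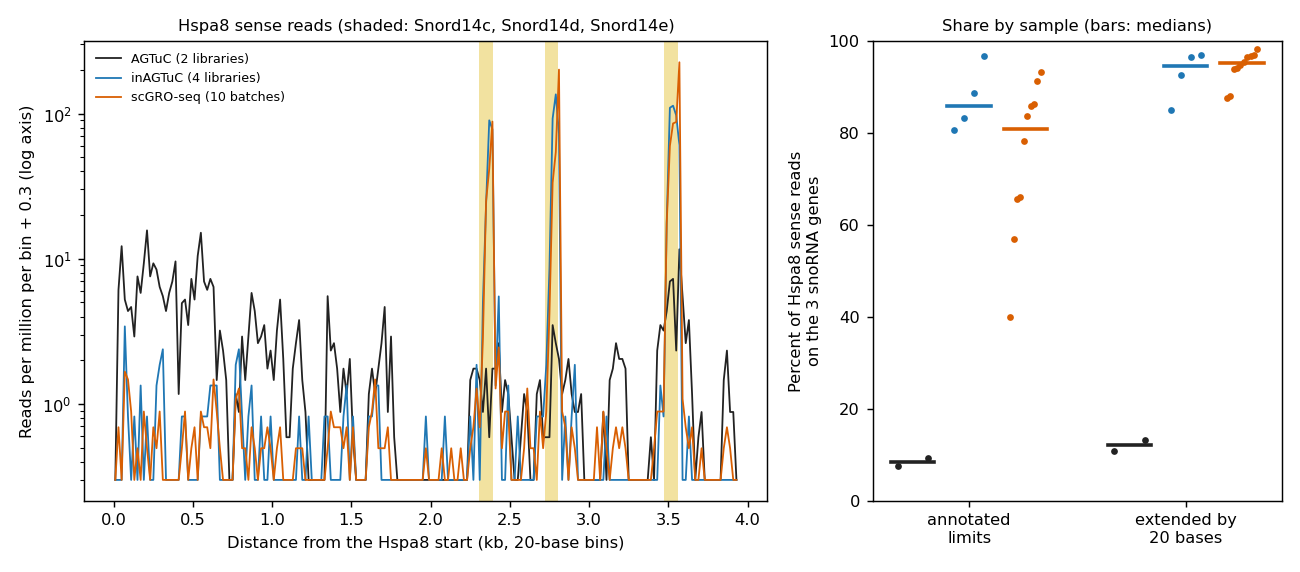
Left, sense reads along Hspa8 in 20-base bins, as RPM plus 0.3 on a log axis, pooled by assay, with the 3 snoRNA genes shaded; right, percent of Hspa8 sense reads on these genes in each sample, by annotated limits and extended by 20 bases (bars, medians). AGTuC reads spread along the gene, while reads of the other assays stand in 3 narrow peaks, with 94.3% of scGRO–seq reads of a batch on the extended genes on average.

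Per kilobase of body, exons and introns together, and with the extended snoRNA genes left out of Hspa8, Hsp90ab1 came first in all 3 assays. Its median density was 87.6 RPKM (RPM per kilobase of body) in AGTuC, 25.9 in inAGTuC and 37.2 in scGRO–seq, with no overlap with the next gene in any assay, although Hspa8 in its highest scGRO–seq batch (35.3) exceeded Hsp90ab1 in its lowest (29.7). In AGTuC it was followed by Hspa8 (62.6), Hspd1 (28.4), Hsp90aa1 (27.97), Hspe1 (17.6), Dnajb1 (9.5) and Hsph1 (6.1), where of these neighbours only Hspd1 and Hsp90aa1 overlapped. In scGRO–seq the order after Hsp90ab1 was Hsp90aa1 (10.8), Hspa8 (10.4), Hspd1 (8.7), Hspe1 (5.8), Hsph1 (3.6) and Dnajb1 (3.5), and all neighbours among these 6 overlapped. Dnajb1 density ranked above 94.2% of all genes in AGTuC and above 72.7% in scGRO–seq. That of Hsp90ab1 ranked above 99.8% in AGTuC and 99.6% in inAGTuC and in scGRO–seq. In introns alone Hspa8 held more reads per base than Hsp90ab1 in all 3 assays. In AGTuC there were 504 reads over 1011 bases against 857 over 2572. Over the same bases there were 38 against 48 reads in inAGTuC and 97 against 137 in scGRO–seq.

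Polymerase near the start was compared next, as the read density of the first 500 bases over that of the body, for 15885 genes, with 0.5 reads added to each count in the ratios of single samples. In AGTuC all 7 members had more reads per base near the start than in the body. The lowest pooled ratio was 2.81 for Hsp90ab1 and the highest 17.8 for Dnajb1, beside a median of 14.9 over all genes, so 6 of the 7 lay below that median. In scGRO–seq the pooled ratios ran from 0.126 for Hspa8 to 1.80 for Hsph1. In inAGTuC they ran from 0.535 for Hspa8 to 2.51 for Dnajb1. Both low ends rest on Hspa8 body reads beside the annotated snoRNA limits. Without the extended snoRNA genes the Hspa8 ratio was 1.34 in scGRO–seq, 2.12 in inAGTuC and 4.78 in AGTuC, and the lowest members were Hsp90aa1 (0.445) in scGRO–seq and Hspd1 (0.623) in inAGTuC. The medians over all genes were 1.704 and 2.56.

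In AGTuC Dnajb1 was the member with the sharpest start. Its promoter over body ratio was 17.8 and 17.7 in the AGTuC libraries, 2.7, 1.4, 4.3 and 4.4 in inAGTuC, and 0.38, 1.88 and 7.96 (lowest, median, highest) in scGRO–seq. All samples with intact nuclei lay below AGTuC. These ratios rest on few promoter reads, 6 in all inAGTuC libraries and 5 in all scGRO–seq batches, against 297 in AGTuC. The median over scGRO–seq batches was 0 promoter reads, and inAGTuC library Exp208_c12, at 2.7, also had 0. Batch Exp260 had 0 promoter and 0 body reads. Its 7.96 is set by the reads added to each count, so its place below AGTuC shows nothing. Of 327 AGTuC reads within 1 kb of the start, 162 lay between 150 and 200 bases past it, against 2 of 14 in scGRO–seq. The limma log2 difference was -2.61 ± 1.04 for inAGTuC (limma adjusted p = 0.045) and -3.29 ± 0.93 for scGRO–seq (adjusted p = 0.0059). Dnajb1 has another annotated start 373 bases downstream. Measured from there the differences were -0.33 (adjusted p = 0.81) and -0.09 (adjusted p = 0.94); the peak lies before that start.

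Dnajb1 was the only member called lower in inAGTuC, 1 of 7 against 31.1% of all genes. In scGRO–seq 3 members were lower, Dnajb1, Hspa8 and Hsp90aa1, against 33.9%. The median log2 difference of all genes was -2.01 in inAGTuC and -1.81 in scGRO–seq. Hsp90aa1 had ratios of 3.35 and 3.50 in AGTuC and of 0.25, 0.66 and 1.72 (lowest, median, highest) in scGRO–seq, with a log2 difference of -2.49 ± 0.96 (limma adjusted p = 0.036). It had 12 promoter reads in all scGRO–seq batches, with a median of 0.5 per batch, against 167 in AGTuC. The lowest ratio, of Exp263, had 0 promoter reads and rests on the reads added to each count. Hspa8 had 5.47 and 4.26 in AGTuC and 0.055, 0.415 and 4.02 in scGRO–seq, a difference of -3.73 ± 1.14 (adjusted p = 0.0097). For Hspa8 this was lost without the extended snoRNA genes, at -1.60 (adjusted p = 0.15). Every scGRO–seq batch was below both AGTuC libraries for 5 members, as for 34.7% of all genes. The 5 include Dnajb1, where Exp260 had no promoter or body reads. The exceptions were Hspd1 and Hspe1. Without the extended snoRNA genes it was so for 4, since Hspa8 then had a ratio of 4.73 in Exp211 and in Exp260, each with 3 promoter and 4 body reads, against 5.63 and 4.42 in AGTuC. Without either AGTuC library no member was called in scGRO–seq or in inAGTuC, and without any of the inAGTuC libraries Exp208_c12, Exp208_c14 and Exp261_c16 none was called in inAGTuC. With experiment as a random block no member was called in either comparison, beside 7.13% and 5.87% of all genes, and the adjusted p of Dnajb1 was 0.11 in inAGTuC and 0.076 in scGRO–seq. Leaving out Exp160 added Hspe1 to the scGRO–seq calls and leaving out Exp263 removed Hsp90aa1. Over all single omissions the share of all genes called lower ran from 0.994 to 36.4% in inAGTuC and from 0.98 to 38.8% in scGRO–seq. The width of the promoter window mattered as well: over the first 250 bases alone, the inAGTuC differences of Hspd1, Hspe1 and Hsp90ab1 were 0.55, 0.83 and 0.53, and the scGRO–seq difference of Hspd1 was 0.74.

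Starts of other members showed where the AGTuC reads stood. In 50-base bins the highest bin was at 100 to 150 bases past the start for Hsph1, 200 to 250 for Hspa8, 250 to 300 for Hspe1 and 300 to 350 for Hsp90ab1. For Hsp90aa1 it lay at 500 to 550 bases. Hspd1 had its peak 400 to 450 bases past the first annotated start, and its second annotated start lies 311 bases past the first. For Hsp90ab1 the highest bins of the assays are given without a test. Between 50 and 100 bases past the start stood 50 of its 90 scGRO–seq reads within 1 kb of the start and 24 of 55 in inAGTuC, while in AGTuC its highest bin, 300 to 350, held 80 of 776.

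Promoter sequences from RefSeq (GRCm38.p6, windows of 300 bases over each start) were at hand for 4 of the 7 members, Hspd1, Hspe1, Hsph1 and Dnajb1. The windows are not centred and lie mostly before the start: that of Hspe1 is chr1:55087898-55088197, with the start at 55088148. Units farther downstream were not searched. They were searched for the heat shock units TTCNNGAA and GAANNTTC, which read the same on both strands and can overlap, for CCAAT on both strands and for TATAAA on both strands. TTCNNGAA is in 8.52% and GAANNTTC in 7.86% of all 32851 windows, CCAAT in 37.4% and TATAAA in 13.6%. The stretches below are shown because these genes share or differ in the units. Capitals mark heat shock units and CCAAT or its reverse ATTGG.
Hspd1 and Hspe1 (chr1:55088053-55088082, plus strand): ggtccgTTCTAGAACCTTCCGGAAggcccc
Hsph1 (chr5:149636337-149636436, minus strand): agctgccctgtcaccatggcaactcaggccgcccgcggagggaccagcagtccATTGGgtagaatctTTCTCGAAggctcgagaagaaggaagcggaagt
Dnajb1 (chr8:83608015-83608174, plus strand): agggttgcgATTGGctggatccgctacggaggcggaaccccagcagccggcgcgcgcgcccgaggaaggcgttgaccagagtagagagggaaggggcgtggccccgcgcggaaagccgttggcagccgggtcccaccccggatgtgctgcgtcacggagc
Hspd1 and Hspe1 lie head to head. The first Hspd1 start puts their spans 96 bases over each other, and from its second start they are 216 bases apart. Between these lie 3 overlapping units, which start 89, 84 and 79 bases before the Hspe1 start; they also lie within the first exon of a longer Hspd1 transcript. Only 8 of 32851 windows (0.0244%) hold 3 overlapping units, and these windows include Hspe1 and the second Hspd1 start, which share the element. Hsph1 has a unit 33 bases before its start and others 36 and 41 bases after it. The letters of neither unit occur in the Dnajb1 windows, and TATAAA occurs in none of the 4 genes' windows. Such matches describe letters only and say nothing of binding.

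**Figure D3:**
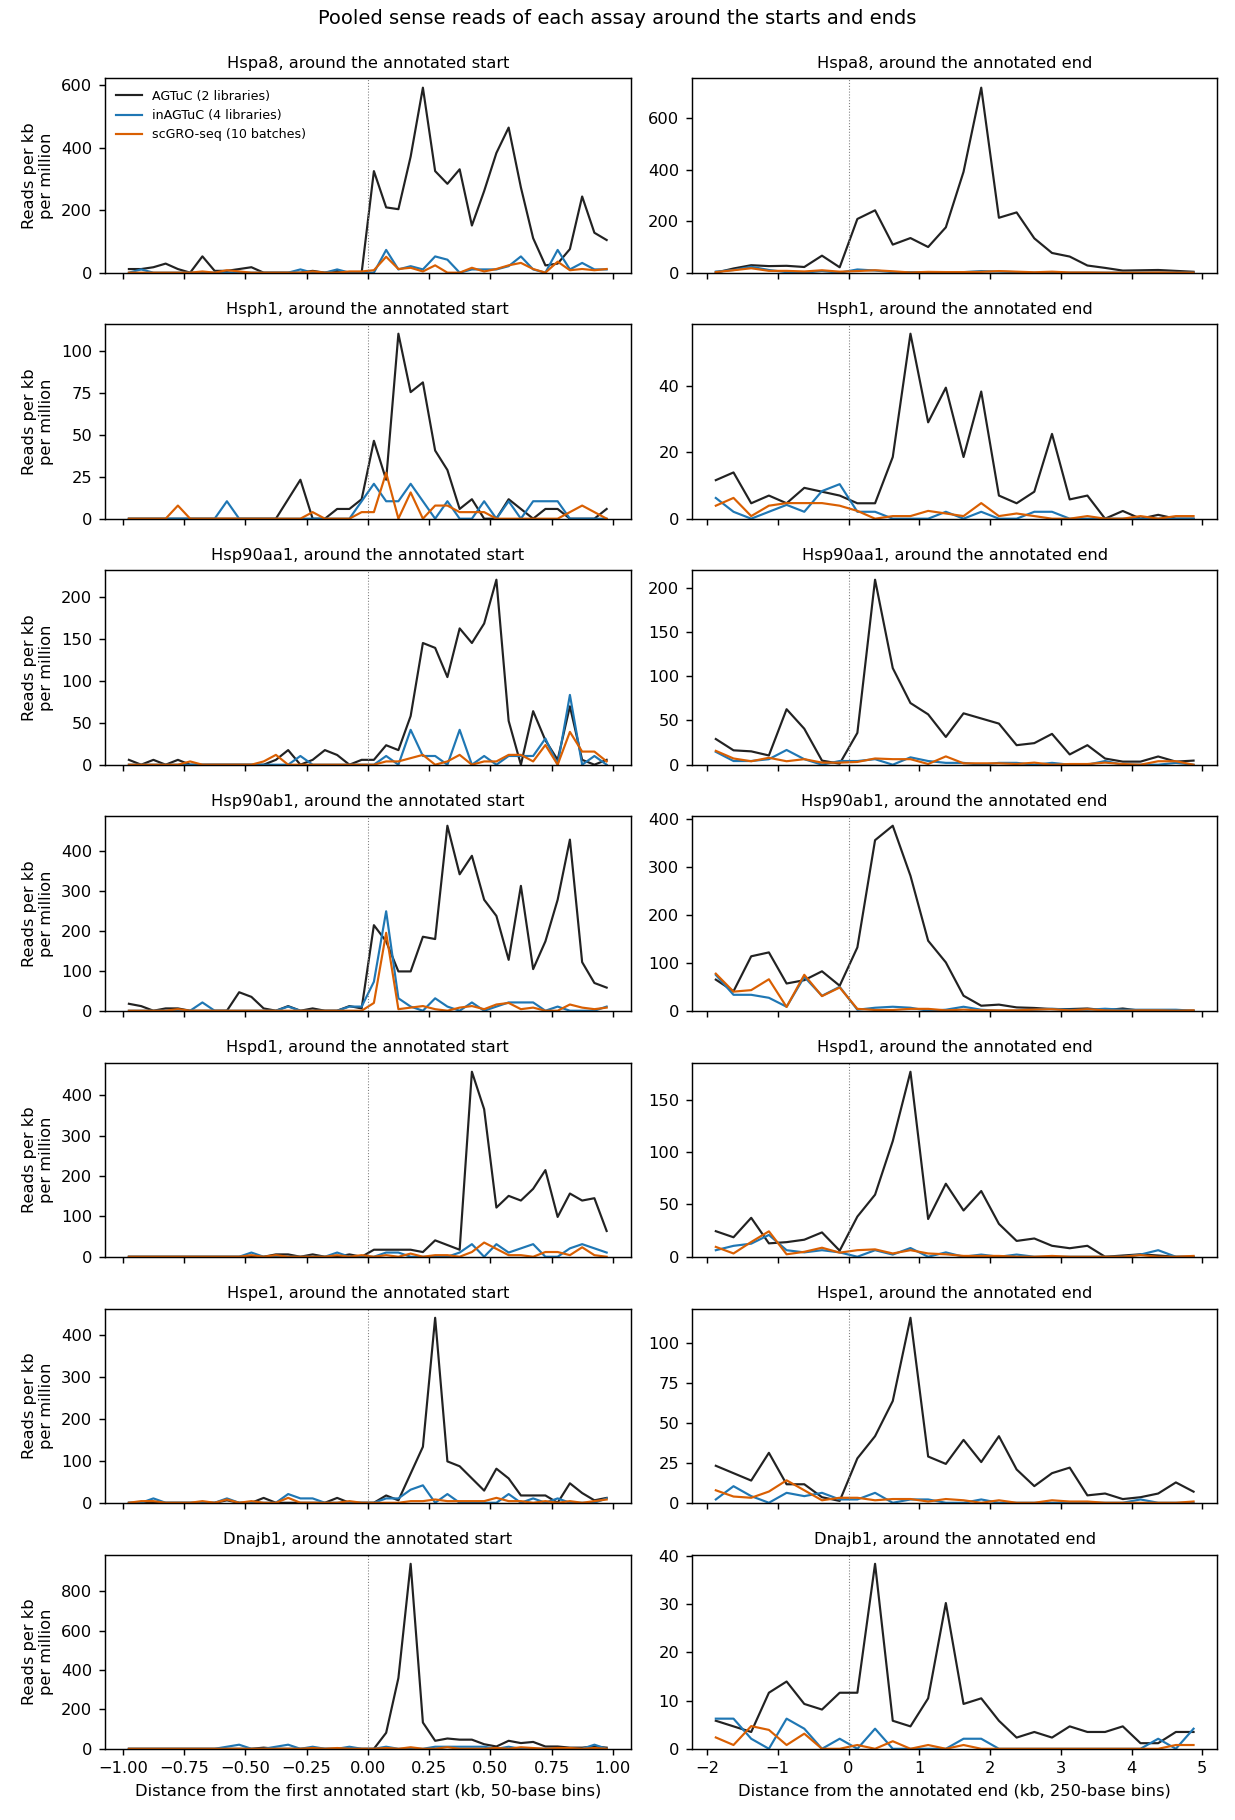
Sense reads as RPM per kilobase, pooled by assay, in 50-base bins around the first annotated start (left) and in 250-base bins around the annotated end (right) of each gene. AGTuC peaks past the start, most sharply for Dnajb1, and again past the end, while inAGTuC and scGRO–seq stay low past the ends of all 7 genes.

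Past the annotated end, polymerases go on for some kilobases before they leave the gene. The 5 kb past each end was set against the body, for 16053 genes. In AGTuC the pooled density past the end was 0.826 to 2.21 times that of the body, lowest in Dnajb1 and at 2.19 in Hspa8 and 2.21 in Hsph1, beside a median of 1.51 over all genes. In inAGTuC it was 0.0511 to 0.293 times, and in scGRO–seq 0.0242 to 0.252 times, beside medians of 0.535 and 0.487. The low ends were again Hspa8 by the annotated snoRNA limits. Without the extended snoRNA genes Hspa8 had 2.26 in AGTuC, above Hsph1, 0.203 in inAGTuC and 0.257 in scGRO–seq, the highest of the members in the latter, and the lowest member in both was Hsp90ab1, at 0.0976 and 0.0422. The members thus lay below the median of all genes in both assays with intact nuclei. For Hsp90ab1 the body reads lay mostly in exons there, 238 of 286 in inAGTuC and 856 of 993 in scGRO–seq, against 628 of 1485 in AGTuC. How this moves its ratio was not tested.

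Hspa8 and Hsp90ab1 had the lowest adjusted p-values past the end in scGRO–seq. Hspa8 had past end over body ratios of 2.51 and 2.05 in AGTuC, 0.112, 0.276, 0.335 and 0.024 in inAGTuC, and 0.0055, 0.061 and 0.632 (lowest, median, highest) in scGRO–seq. In AGTuC 620 of its 2489 reads past the end lay 1.75 to 2 kb beyond it. Its log2 differences were -4.18 ± 1.32 for inAGTuC (limma adjusted p = 0.039) and -5.07 ± 1.18 for scGRO–seq (adjusted p = 0.0060). Without the extended snoRNA genes they were smaller, -3.29 (adjusted p = 0.021) and -2.94 (adjusted p = 0.017), and the second was then close to that of Hsph1 and Hspe1, given below. Hsp90ab1 had 0.832 and 0.877 in AGTuC, 0.107, 0.094, 0.341 and 0.047 in inAGTuC, and 0.014, 0.041 and 0.134 in scGRO–seq. The log2 difference for scGRO–seq was -4.42 ± 1.01 (limma adjusted p = 0.0053). That for inAGTuC, -2.92 ± 1.12, did not pass (limma adjusted p = 0.078). Both rest on the Hsp90ab1 body reads that lay mostly in exons in the assays with intact nuclei.

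In scGRO–seq 5 of 7 members were lower than in AGTuC past the end, Hspa8, Hsp90ab1, Hspe1, Hsph1 and Hspd1, against 11.4% of all genes. Hspe1 differed by -3.13 ± 0.89 on the log2 scale (limma adjusted p = 0.020), Hsph1 by -2.97 ± 0.96 (adjusted p = 0.035) and Hspd1 by -2.64 ± 0.86 (adjusted p = 0.036). Hspe1 and Hsph1 each had 25 reads past the end in all scGRO–seq batches, with medians of 1 and 1.5 per batch. Batches with 0 such reads, as Exp156 for Hspe1 and Exp208 for Hsph1, rest on the reads added to each count. Hsp90aa1 was at -2.76 ± 0.97 (adjusted p = 0.050, just above the threshold) and Dnajb1 at -1.83 ± 0.88 (adjusted p = 0.14). Every scGRO–seq batch lay below both AGTuC libraries for all members except Dnajb1, 6 of 7, as for 22.2% of all genes. The Dnajb1 batches that did not were Exp160, with 1 body read and 1 read past the end, and Exp260, with 0 of both. The ratio of Exp260 is set by the reads added to each count, so this exception shows nothing about Dnajb1. In inAGTuC 1 of 7, Hspa8, was lower, against 8.62%. All 7 log2 differences were below 0 there, beside a median over all genes of -1.41 in inAGTuC and -1.16 in scGRO–seq. The inAGTuC count of members called was unstable: it was 3 without Exp234_c11 and 2 without Exp160, Exp260b or Exp264a. It was 0 without any other inAGTuC library or either AGTuC library, and the scGRO–seq count was 0 without either AGTuC library. Over all single omissions the share of all genes called lower also moved, from 0 to 11.8% in inAGTuC and from 0.00649 to 13.2% in scGRO–seq. With experiment as a random block no member was called in either comparison, beside 0.0436% and 0.311% of all genes, and the lowest adjusted p was 0.071, for Hsp90ab1 in scGRO–seq. Between scGRO–seq and inAGTuC limma called no member for the promoter ratio or past the end, as for 0.0% of all genes. Unadjusted, only the Hspa8 promoter ratio was under 0.05 (limma p = 0.024), and the lowest value past the end was 0.057 for Hsp90ab1.

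**Figure D4:**
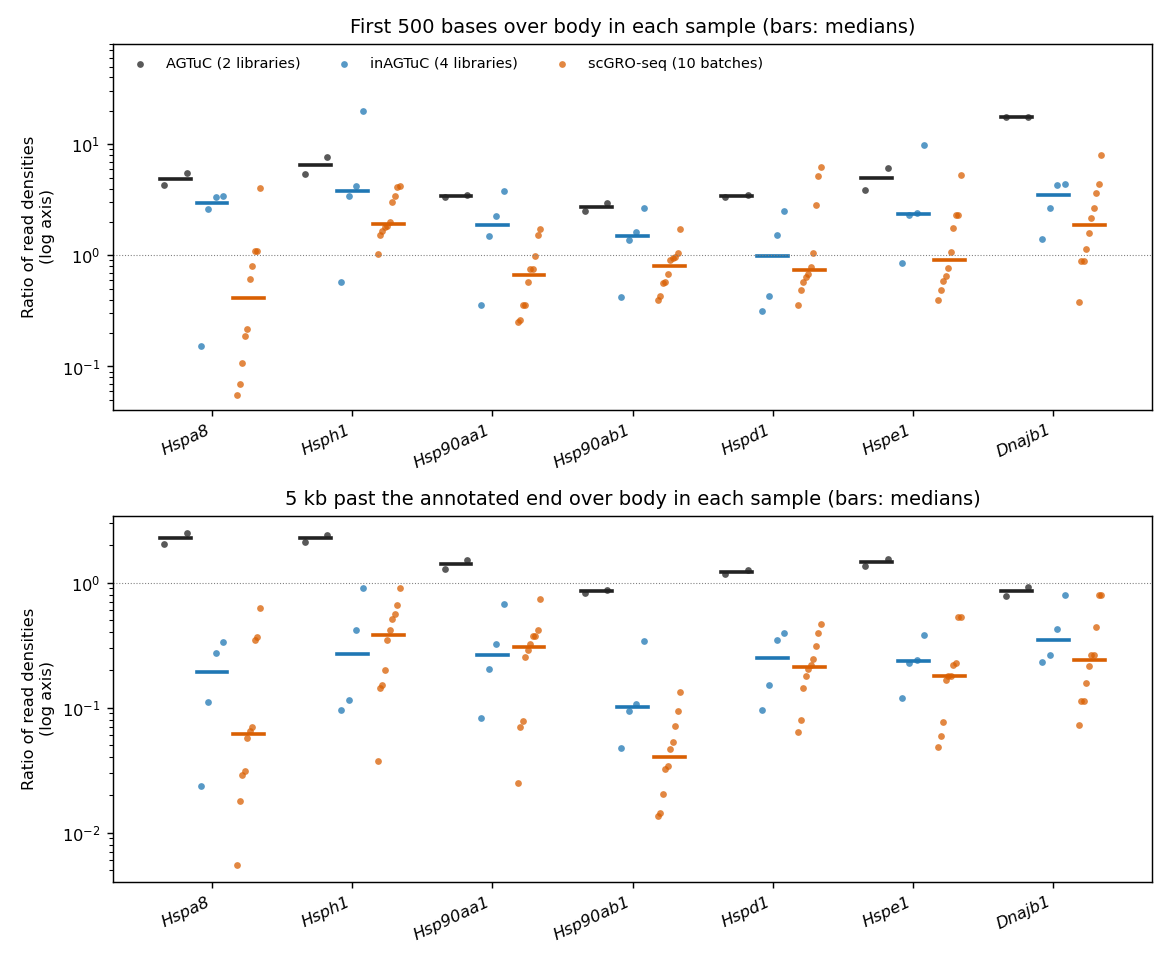
Ratios of read density, on log axes, in each sample: the first 500 bases over the body (top) and the 5 kb past the annotated end over the body (bottom), with bars at medians. The bottom ratios of the AGTuC libraries, 0.78 to 2.51, lie above every scGRO–seq batch of the same gene except for Dnajb1, where 2 batches reach 0.796. Of these, Exp160 had 1 body read and 1 read past the end, and Exp260 had 0 of both.

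Nascent RNA still holds its introns, so body reads were also split into exons and introns. Hsp90ab1 differed most between assays. Its exon density over intron density was 0.778 and 0.789 in AGTuC, lay between 3.97 and 8.99 in inAGTuC, and had a lowest, median and highest value of 1.68, 4.93 and 20.4 in scGRO–seq. Over all scGRO–seq batches 856 body reads were in its exons and 137 in its introns, against 628 and 857 in AGTuC. Exact permutation tests gave p = 0.067 and p = 0.015, the smallest possible values, for log2 differences of 2.79 and 2.69. With a mapping quality of at least 20 these were 3.09 and 2.87 with the same exact p-values, while 29.5% of Hsp90ab1 reads in scGRO–seq were below that quality. Hsp90aa1 had ratios of 0.203 and 0.221 in AGTuC and 0.349, 0.671 and 1.43 in scGRO–seq, a difference of 1.72 (exact p = 0.015); with that mapping quality the exact p was 0.091. Tests for the other 5 members had exact p-values of 0.061 or more in scGRO–seq against AGTuC, although Hspd1 and Hspe1 had exact p-values of 0.015 and 0.045 with that mapping quality. Without either AGTuC library no member could pass. These p-values are unadjusted and come from 21 tests, 7 members by 3 pairs of assays. The split was made for the members only, so whether other genes differ in the same way was not tested.

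In single cells the genes were sparse. Of 2525 cells, 790 (31.3%, 95% Wilson interval 29.5 to 33.1%) had at least 1 sense UMI on Hsp90ab1, 402 (15.9%) on Hspd1, 362 (14.3%) on Hsph1 and 245 (9.7%) on Hsp90aa1. Hspa8 without the extended snoRNA genes had UMIs in 175 cells (6.9%), Hspe1 in 84 (3.3%) and Dnajb1 in 41 (1.6%). These are shares of cells with a captured molecule and not of cells that express the gene. The share moved with the batch: for Hsp90ab1 it ran from 19.2% in Exp260 to 45.8% in Exp264a, and for Hspd1 from 7.7% in Exp264a to 22.7% in Exp236. It also moved with depth, since cells with a Hspd1 UMI had a median of 4636 UMIs and the others 3288. Most positive cells held a single UMI. Hsp90ab1 had 201 cells with at least 2 and a maximum of 8 UMIs, while Hspe1 and Dnajb1 each had 2 cells with 2 UMIs. At least 1 member was seen in 1436 cells, 2 cells held 6 members and none held all 7.

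Hspd1 and Hspe1 share their promoter region, and the cells that held both were counted. Sense UMIs on both genes were found in 20 cells, and the product of both shares within each library gave 17.1. The count was above that number in 4 of 10 batches and below it in 6. Exact sign flips of the batch differences gave a two-sided p of 0.71, so no excess was detectable at this depth. Of the 20 cells 15 came from Exp236, where 9.87 were given by the shares. Without Exp236 there were 5 cells against 7.19, and with the cells of each library split into 3 parts by depth the 20 cells stood against 19.6. Over all 21 pairs of members the ratio of joint cells to this number ran from 0.884 for Hspa8 with Hsph1 to 1.67 for Hsp90aa1 with Dnajb1 (7 cells against 4.18). Of these pairs 19 were above 1, and with the cells split by depth 17 were, from 0.825 to 1.64. In none did the 95% Poisson interval of the count lie above the number given by the shares, with or without the split. That interval covers counting error only. Pairs of other genes were not counted, so the 19 and 17 have no background share beside them.

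**Figure D5:**
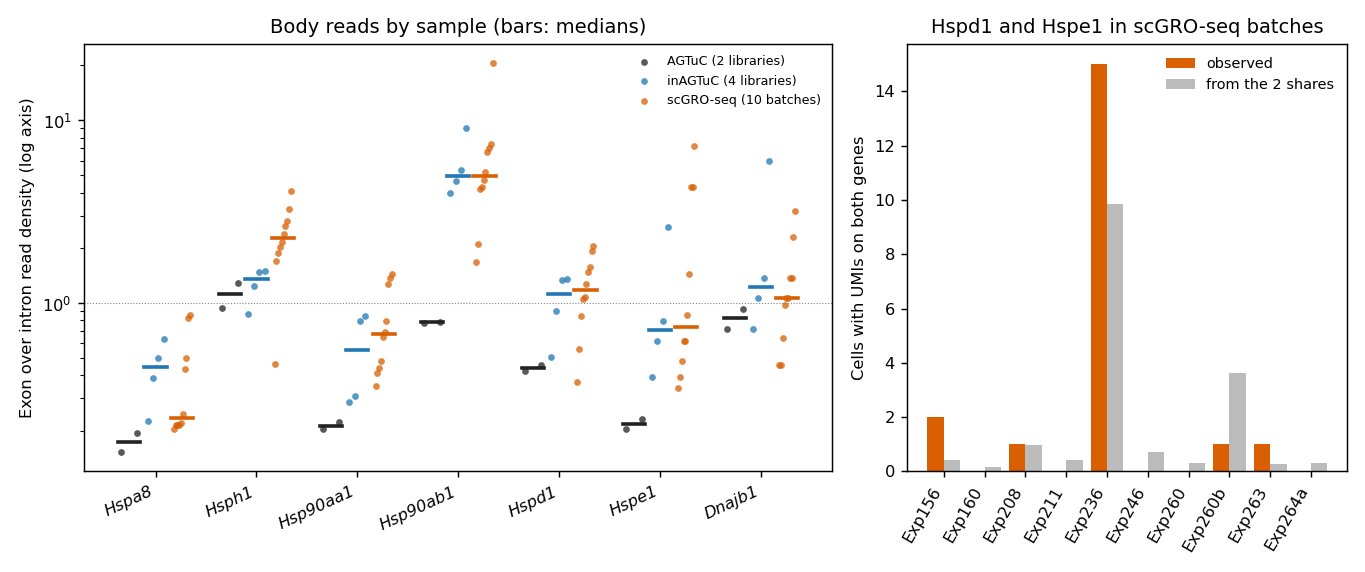
Left, density of body reads in exons over that in introns for each sample, on a log axis with bars at medians; right, cells of each scGRO–seq batch with UMIs on both Hspd1 and Hspe1 (orange) beside the number from the product of both shares (grey). Hsp90ab1 lies below 1 in both AGTuC libraries and above 1 in every other sample, and Exp236 holds 15 of the 20 joint cells.

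Over the 10 scGRO–seq batches the members did not vary as 1 group. With reads scaled by total, none of the 21 pairs passed after Benjamini-Hochberg adjustment of permutation tests, 4 pairs had an unadjusted p under 0.05 and the median Pearson r was 0.05. The closest pairs were Hsp90aa1 with Hsp90ab1 (r = 0.77, rho = 0.85, permutation p = 0.0058 and 0.0029, adjusted p = 0.075 and 0.060) and Hspa8 with Hsph1 (r = 0.82, rho = 0.71, permutation p = 0.0072 and 0.027, adjusted p = 0.075 and 0.19). These values use the annotated snoRNA limits. Without the extended snoRNA genes Hspa8 with Hsph1 had r = 0.34 and rho = 0.19 (permutation p = 0.34 and 0.61), the HSP90 pair had r = 0.78 and rho = 0.77 (permutation p = 0.0037 and 0.013, adjusted p = 0.077 and 0.13), and again no pair passed. Hsph1 with Hsp90ab1 then had r = 0.74 and rho = 0.81 (permutation p = 0.021 and 0.0073, adjusted p = 0.21 and 0.13). With upper-quartile scaling and the annotated limits 2 pairs passed. Leaving out the 2 batches farthest from the median, by the annotated limits, r was 0.73 for the HSP90 pair and 0.49 for Hspa8 with Hsph1. With the extended snoRNA genes left out it was 0.51 for the HSP90 pair, 0.31 for Hspa8 with Hsph1 and 0.71 for Hsph1 with Hsp90ab1. Hspd1 and Hspe1 had r = 0.13 and rho = 0.01 (permutation p = 0.71 and 1). With 10 batches, and few reads of the low genes in most, such values are descriptions.

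Genes with the most similar levels over the 16 samples were taken from 5673 genes with at least 500 body reads, by Pearson r of log2 RPM. The samples share assay and depth, so r is high for many genes, and Hspe1 and Dnajb1 themselves had 265 and 190 body reads in all. Hspa8 was closest to Snhg6 (r = 0.93) and Zfas1 (0.91), both of which hold small RNA genes within their spans, 1 and 3 of them. Without the extended small RNA genes its closest among 5652 genes were Pkm (0.94) and Rpl3 (0.93). Hsph1 was closest to Mybbp1a (0.86) and Pabpc1 (0.85), Hsp90aa1 to Ntmt1 (0.91) and Wdr18 (0.91), and Hsp90ab1 to Tubb5 (0.91) and Ccnd1 (0.87). Hspd1 was closest to Rps9 (0.90) and Rpl18 (0.89), Hspe1 to Ppih (0.86) and Ccnl1 (0.85), and Dnajb1 to Zer1 (0.87) and Sdc4 (0.85).

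Beside the 7 genes stand 102 other genes of the chaperone network, of which 88 could be tested for level. Lower levels than in AGTuC were called for 24 of them in inAGTuC, with 1 higher, and for 37 in scGRO–seq, with none higher, as against 16.1% and 30.5% of all genes lower. By list, scGRO–seq levels were lower for 9 of 16 HSP90 co-chaperones, with a median log2 difference of -0.75, and 8 of 14 J-domain proteins, with a median of -0.97. They were lower for 3 of 8 nucleotide exchange factors, 4 of 10 mitochondrial chaperones, 4 of 13 chaperones of the endoplasmic reticulum, 3 of 8 subunits of the cytosolic chaperonin CCT and 2 of 5 prefoldin subunits. Of the remaining lists, 1 of 6 further HSP70 and HSP110 genes, 1 of 2 small heat shock proteins and 2 of 6 heat shock factors and regulators were lower. The strongest calls of each list by adjusted p included Pfdn2 at -1.96 on the log2 scale (limma adjusted p = 3.7e-05), Lonp1, a mitochondrial protease with chaperone activity, at -1.72 (adjusted p = 0.00013) and Ubb, a polyubiquitin gene, at -2.36 (adjusted p = 0.00022). Among partners of HSP70 and HSP90, Dnajb5 was at -2.18, Dnajc9 at -2.02, Nudc at -1.69, Unc45a, a myosin chaperone, at -1.93, and the exchange factors Bag2 and Bag4 at -1.86 and -1.12. Grpel2, which serves mitochondrial HSP70, was at -1.13, Dnajb11 and Dnajc3 of the endoplasmic reticulum at -1.17 and -1.31, the CCT subunits Cct7 and Cct2 at -1.30 and -0.68, and Pfdn4 at -1.02. Hspa4, an HSP110 like Hsph1, was at -0.96 and the small heat shock protein Hspb1 at -2.78. Hspa12b at -1.05 and Hspb8 at -0.59 did not pass (adjusted p = 0.11 and 0.32). ES cell markers were lower for 11 of 11 tested, with a median of -1.69. Of 3 fibroblast markers tested 1 was higher, and of 3 mesoderm and ectoderm markers 1 was higher and 1 lower. None of 3 endoderm markers was called. For the promoter ratio 25 of 93 network genes were lower and 1 higher in inAGTuC, and 40 were lower and 1 higher in scGRO–seq. Of all genes 31.1% and 33.9% were lower, but only 7.13% and 5.87% with experiment as a random block. Past the end 16 of 91 were lower and 2 higher in inAGTuC, and 20 were lower and 2 higher in scGRO–seq. Of all genes 8.62% and 11.4% were lower, but only 0.0436% and 0.311% with the random block. Calls of the network genes in the block fits were not counted.

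Within Exp208, which among the samples used here is the experiment with libraries of both scGRO–seq and inAGTuC, the levels were read side by side without a test. Hsp90ab1 had 196.8 body RPM in scGRO–seq and 127.4 and 131.1 in inAGTuC, and Hspd1 had 119.8 against 68.1 and 77.8. Hsp90aa1 stood at 77.02 against 24.6 and 63.7, and Hspa8 at 64.2 against 32.8 and 41.7. Values of Hsph1, Hspe1 and Dnajb1 lay within the range of the inAGTuC libraries of that batch.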

How the data were processed

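Nascent RNA of mouse V6.5 ES cells was read by AGTuC, inAGTuC and scGRO–seq. The authors trimmed reads with Cutadapt, split cell barcodes and UMIs with Flexbar, removed ribosomal DNA reads, mapped to mm10 with bowtie2 and removed duplicates with UMI-tools; the versions are not given in the sources used here. Each line of a deposited list is 1 read with its mapping quality score, and libraries were not pooled by the authors. Here reads were counted, and the score was used only in an alternative that kept reads of mapping quality 20 or more. The read's 5′ end was taken as the 3′ end of the RNA on the opposite strand, and mm10 positions were matched to RefSeq GRCm38 spans, which share their coordinates.

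Only the 53 scGRO–seq libraries of batches named in the study were considered, and other deposited scGRO–seq libraries were left out before any filter. Among these 53 a cell entered with 1000 or more UMIs on 750 or more features, and a library with 24 or more of these cells. Molecules seen in more than 1 library were left out, and scGRO–seq libraries were grouped by the experiment named in their labels. The promoter was the first 500 bases of the span, the body began after 500 bases, and the window past the end was 5 kb without other genes of that strand. Annotated small RNA genes were left out of bodies. Genes of 50 or more reads entered limma (version 3.58.1, R version 4.3.3), with voom for levels and an intensity trend for log2 ratios, which had a pseudocount of 0.5, with Benjamini-Hochberg adjustment over all genes tested and a threshold of 0.05. The fits were tested on simulated data. Single values were compared by two-sided exact permutation, correlations by 100000 permutations, with scipy 1.17.1. Body reads per sample ranged from 133644 to 2396065, and intervals cover counting error only. All 7 members are named, with the 2 genes of lowest adjusted p in each list and the 2 genes most like each member. A gene that this rule names is not reported here. The members and lists were chosen with earlier results of these data known. Alternatives changed read and cell filters, windows, scaling, pseudocount and samples. Extending small RNA genes by 20 bases in levels, ratios and co-variation, using the second annotated start, and fitting experiment as a random block (limma's duplicateCorrelation, 13 experiments over 16 samples), were chosen after seeing the data.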

Additional observations from a re-analysis of the deposited data

Results flagged for a closer look

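In 48 groups of 4 to 10 samples, 7 had 1 sample far from the others by Dixon's test at 95%, where chance gives about 5%. The Hspa8 body level was 286.6 RPM (reads per 1000000 body reads) in inAGTuC library Exp261_c16, against 18.3 to 41.7 in the other 3, and 1419 in scGRO–seq batch Exp264a, against 21.6 to 333.9 in the other batches. With the snoRNA genes extended by 20 bases the same samples had 50.1 and 33.97 RPM. Reads on the snoRNA genes of Hspa8 were highest in Exp156, at 2858 RPM against 312 to 952. Of the promoter over body ratios in scGRO–seq, that of Hspa8 was 4.02 in Exp211 (others 0.055 to 1.10, with 5 body reads in that batch) and that of Hsp90ab1 was 1.72 in Exp156 (others 0.40 to 1.04). The ratio of Hspe1 was 5.34 in Exp160 (others 0.40 to 2.29), where the body held 1 read. The ratio of Dnajb1 was 7.96 in Exp260 (others 0.38 to 4.42), where the body held 0 reads and the value rests on the pseudocount.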

How the results depend on the processing

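Of the values under all alternatives, 1609 kept their direction and their side of the threshold or stayed close, 38 moved, 15 turned direction, 49 gained and 62 lost the threshold. With limma-trend in place of voom 3 members were lower in level in inAGTuC and 3 in scGRO–seq (2.81% and 8.39% of all genes). The Hspa8 level difference of scGRO–seq against AGTuC was 0.028 with upper-quartile scaling and 0.16 with libraries in place of batches, and ran from -0.48 to 0.092 as samples were left out. For the promoter ratio in inAGTuC 0 members were called with all deposited reads (31.7% of all genes) and 0 from the second annotated starts (31.1%). With a promoter of the first 250 bases, and of 250 bases on both sides of the start, differences against AGTuC were 0.53 and 0.54 for Hsp90ab1, 0.55 and 0.60 for Hspd1 and 0.83 and 0.97 for Hspe1 in inAGTuC, and 0.74 and 0.81 for Hspd1 in scGRO–seq. Past the end in inAGTuC 6 members were called with all deposited reads (15.6% of all genes), 2 with reads of 1 barcode within 50 bases counted once (9.6%), 4 with 2 kb (7.14%) and 5 with a pseudocount of 1 (11.2%). In scGRO–seq 2 were called from 1 to 5 kb past the end (8.99%). The Hspa8 snoRNA share of scGRO–seq minus inAGTuC was 1.47 points with extended genes. Co-variation gave 2 pairs with upper-quartile scaling. The cause of these changes was not tested.

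Leaving out 1 library or batch at a time, members called ranged from 0 to 1 (inAGTuC) and 0 to 4 (scGRO–seq) for the promoter ratio, 0 to 3 and 0 to 6 past the end, and 0 to 3 for exons over introns in scGRO–seq. All genes called lower then ranged from 0.994 to 36.4% and 0.98 to 38.8% for the promoter ratio and from 0 to 11.8% and 0.00649 to 13.2% past the end. Exons over introns were computed for the members only, so no share of all genes stands beside that count. The inAGTuC promoter ratio difference of Hsph1 ran from -1.67 to 0.034 and its exon over intron difference from -0.052 to 0.40. The snoRNA share of scGRO–seq minus AGTuC ran from 64.2 to 70.1 points, and joint cells of Hspd1 and Hspe1 above the product of shares from -2.19 to 5.58. No paired analysis was possible by replicate number because these numbers follow accession order. With experiment as a random block, chosen after seeing the data, 5 members were lower in level in inAGTuC and 5 in scGRO–seq (11.3% and 22.4% of all genes), and the members called against AGTuC were 0 and 0 for the promoter ratio (7.13% and 5.87%) and 0 and 0 past the end (0.0436% and 0.311%). The ratios rest on 2 AGTuC libraries of 1 batch, and on as few as 0 body reads of Dnajb1 and 1 of Hspe1 in a scGRO–seq batch.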
